A study of Mus musculus with 20 samples.

Results

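The 44 genes described here code for proteins that copy DNA or that carry a cell through mitosis. They were chosen by gene symbol from the 22734 genes of the deposited count table, and all 44 were found in it. The replication group held 21 genes and the mitosis group held 23. RNA sequencing had been carried out on the sensory epithelium of the cochlea and on the superior olivary complex (SOC), a set of brainstem nuclei that process sound, at E16 (before birth), P0 (birth) and P16 (after hearing onset). All mice were wild type and untreated. There were 3 cochlear libraries per age, and the SOC had 4 at E16, 4 at P0 and 3 at P16, which makes 20. Per the study's methods, tissue was pooled from several mice of both sexes. The cochlear mice were C57BL/6JOlaHsd, and the SOC mice were C57Bl6/J. At E16 the SOC was cut from frozen whole heads, whereas at P0 and P16 the brain had been taken out of the skull. Substrain, laboratory, library kit and sequencer differed between the organs, so that these and the organ cannot be told apart where levels are set side by side. Ages were therefore compared within each organ.

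Before a cell divides, the origin recognition complex, Cdc6 and Cdt1 load the ring-shaped Mcm2-7 helicase on DNA. Mcm10 and the GINS complex help to start it, polymerases copy the strands on the sliding clamp Pcna, and ribonucleotide reductase and thymidylate synthase supply the building blocks. In mitosis, cyclin B with Cdk1 drives entry, Aurora and Polo-like kinases and kinesins build the spindle, Bub1 and Bub1b hold the checkpoint, and Cdc20 and Ube2c act with the anaphase-promoting complex to end it. Most of these genes are transcribed mainly in cycling cells, which is why their RNA serves as a marker of proliferation. The progenitors of hair cells and supporting cells, like those of brainstem neurons, divide mainly in the embryo, while glia of the brain go on dividing after birth.

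Levels are given as CPM, the count scaled to the total of its library. The libraries held 20843679 to 33109083 counts, where 3 counts, the most that a 0 leaves possible by counting error alone, are 0.0906 to 0.144 CPM. A gene was called when edgeR's quasi-likelihood test gave a Benjamini-Hochberg adjusted p under 0.01, the fold change was over 2.5 and the libraries of the compared ages did not overlap. The first pair of thresholds is the study's, and the last criterion is a version of its demand for a direction shared by all replicates. Counts of replicates were further apart than sampling of reads gives (chi-square divided by degrees of freedom, 4.96 to 109). The labelled tissues were checked by markers. Hair cell markers (10 genes) summed to 93.01 to 103 CPM in the cochlea at E16 and to 499 to 655 CPM at P16. In the SOC they summed to 63.4 to 107 CPM at E16, 61.6 to 105 CPM at P0 and 26.5 to 36.65 CPM at P16. Their sum thus did not separate the organs at E16, although 3 of them (Slc26a5, Tmc1 and Ocm) were at 0 in all SOC libraries. Cartilage markers (11 genes) summed to 5804 to 6860 CPM in the cochlea at E16, 12190 to 13630 CPM at P0 and 4080 to 5132 CPM at P16. Neuron markers (9 genes) summed to 2470 to 4312 CPM in the SOC and to at most 1277 CPM in the cochlea.

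Cochlea P16 replicate 3 stood apart from its replicates, and cochlear changes to P16 that moved by over 1.5-fold without it are given both ways for the genes described. The 14 markers of marrow neutrophils were all highest there, with a summed level of 554 CPM against 62.4 and 77.3 CPM in replicates 1 and 2. The same held for all 11 markers of B-lymphoid precursors (136 against 35.2 and 33.0 CPM) and for all 13 erythroid markers (1295 against 185 and 312 CPM). Of the 10 hair cell markers 6 were highest in it, of the 9 neuron markers 3, and of the 10 skeletal muscle markers 0.

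At E16, the members covered a wide range of levels per kilobase of exon. In the cochlea Top2a, the topoisomerase that untangles chromosomes, had the highest level, at 39.4 ± 6.14 CPM per kilobase (SD, n = 3). Mki67, which coats mitotic chromosomes and is the antigen of the Ki-67 stain, followed at 36.2 ± 2.44, then Pcna at 33.2 ± 3.93, Mcm7 at 32.5 ± 1.90 and Mcm6 at 29.4 ± 2.26. Neighbours in this order did not differ beyond their spread. Mcm10 (2.92 ± 0.198) and Fen1 (0.497 ± 0.168) were the lowest. In the SOC Pcna led at 42.3 ± 3.85 CPM per kilobase (SD, n = 4), before Top2a at 33.5 ± 3.88 and Mcm6 at 29.3 ± 1.40, and Mcm10 was again the lowest at 1.53 ± 0.0769. Fen1, which trims flaps from newly made strands, was at 12.7 ± 3.35 CPM per kilobase in the SOC. In GENCODE M21, 84.2% of its exon bases lie under genes of the opposite strand (Gm10143 and Tmem258). For Gins2 the share is 67.3% (under Gse1), for Kif20a 29.3%, for Ube2c 22.8%, and for Rfc4, Ccna2 and Prc1 between 11.1% and 12.7%. Both kits mark strand, but whether the counting used it is not given in the sources used here, so that counts of these genes and of their partners cannot be told apart with certainty.

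From E16 to P16 nearly all members fell in both organs. In the SOC 19 of 21 replication genes and 22 of 23 mitosis genes were called lower at P16, against 14.7% of all 16832 genes tested there. The median log2 fold change was -3.01 for replication genes and -4.14 for mitosis genes (8.03 and 17.6 times lower), while that of all genes tested was -0.15. In the cochlea 16 of 21 replication genes and 20 of 23 mitosis genes were called lower, against 9.5% of 21664 genes tested, with medians of -1.76 and -2.40 (3.39 and 5.27 times lower) and 0.01 for all genes. Without cochlea P16 replicate 3, the cochlear counts were 19 and 23, against 10.2% of all genes, and the medians were -2.30 and -3.66 (4.93 and 12.65 times lower). 35 members were called lower in both organs (16 replication and 19 mitosis genes), against 5.61% of genes tested in both, and 41 without that library, against 6.26%. In tissue libraries such as these, fewer dividing cells and less RNA per dividing cell cannot be told apart. Other cell types also moved in the cochlea, in replicates 1 and 2 too. From E16 to P16 the 8 bone markers went from 8.08 to 10.2 CPM up to 231 to 529 CPM, neuron markers from 277 to 314 CPM up to 982 to 1277 CPM, and marrow neutrophil markers from 10.7 to 12.5 CPM up to 62.4 and 77.3 CPM in replicates 1 and 2. Their part in the falls was not tested.

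**Figure D1:**
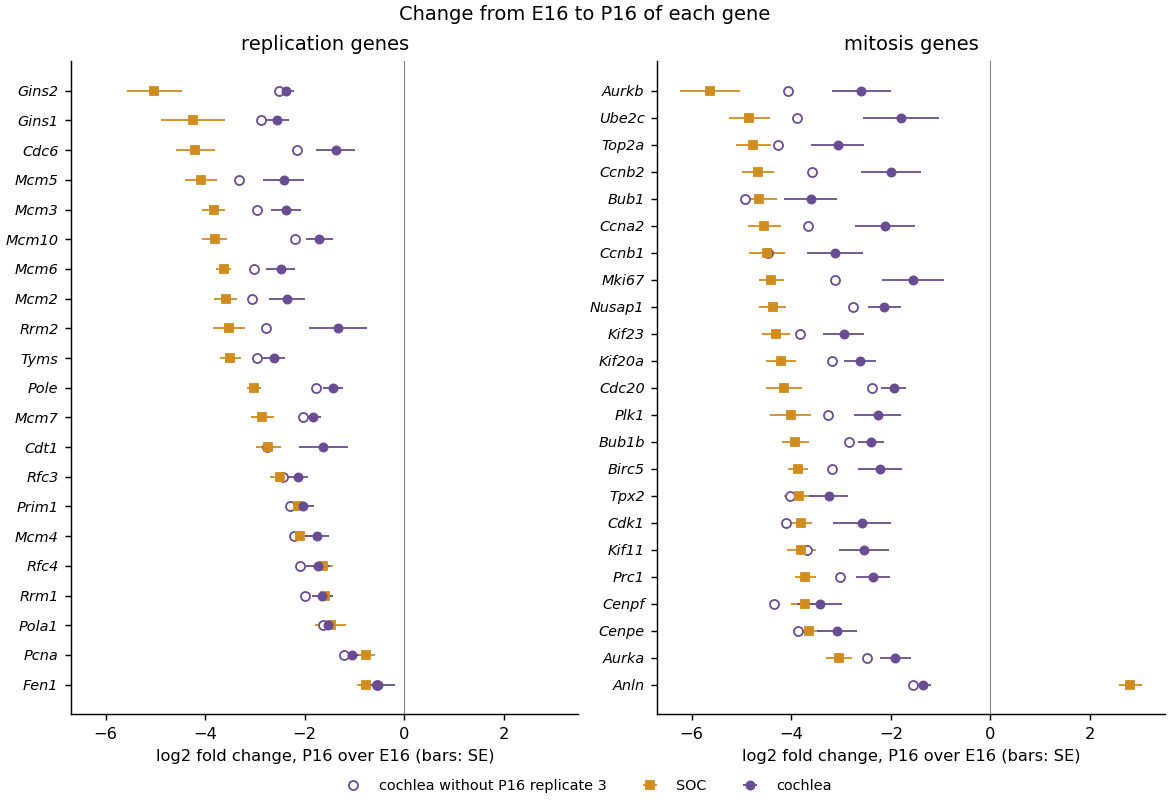
Log2 fold change from E16 to P16 (x axis) of each of the 21 replication and 23 mitosis genes (y axis), for the SOC (squares) and the cochlea (filled circles) with bars of 1 SE, and for the cochlea without P16 replicate 3 (open circles). Anln in the SOC, at 2.81, is the only point right of 0, and every open circle lies left of its filled circle.

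Mki67 (mm10, chr7:135689784-135716361, minus strand, GENCODE M21) shows what lies behind these values. In the SOC it stood at 162, 225, 189 and 159 CPM at E16, at 31.2, 52.0, 34.0 and 40.8 CPM at P0, and at 5.77, 5.75 and 9.88 CPM at P16. In the cochlea it stood at 365, 339 and 388 CPM at E16, at 135, 159 and 163 CPM at P0, and at 29.5, 48.5 and 277 CPM at P16. No ages overlapped in the SOC, whereas the cochlear P16 libraries spanned the P0 range because replicate 3 was at 76.1% of the E16 mean. The SOC change from E16 to P16 was -4.40 ± 0.250 (log2, SE), with an adjusted p of 3.153e-08 in edgeR's quasi-likelihood test (Benjamini-Hochberg). The cochlear change was -1.56 ± 0.622 with an adjusted p of 0.0479, which did not pass, and -3.13 ± 0.215 (adjusted p = 1.69e-07) without replicate 3.

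Top2a (chr11:98992943-99024189, minus strand) stood at 365, 295 and 405 CPM in the cochlea at E16, at 97.8, 70.6 and 79.1 CPM at P0, and at 15.3, 19.7 and 87.1 CPM at P16. In the SOC it went from 308, 272, 279 and 349 CPM at E16 over 65.3, 74.3, 44.7 and 110 CPM at P0 to 6.65, 7.41 and 13.6 CPM at P16. It was called lower at P16 in both organs, by -3.07 ± 0.538 in the cochlea (-4.26 ± 0.209 without P16 replicate 3) and by -4.76 ± 0.347 in the SOC. Cdk1, the kinase that drives entry into mitosis, stood at 34.2, 37.1 and 32.4 CPM in the cochlea at E16, at 19.7, 20.9 and 20.2 CPM at P0, and at 1.89, 1.87 and 13.04 CPM at P16. The SOC had 62.3, 47.5, 54.3 and 61.0 CPM, then 14.2, 13.6, 9.66 and 16.9 CPM, then 3.10, 3.04 and 3.71 CPM. The ages did not overlap in either organ, with changes to P16 of -2.58 ± 0.581 (cochlea), -4.11 ± 0.150 (cochlea without P16 replicate 3) and -3.81 ± 0.218 (SOC). Its partner cyclin Ccnb1 fell by 3.13 ± 0.563 on the log2 scale in the cochlea, where it was at 49.98, 43.7 and 52.9 CPM at E16 and at 1.40, 2.72 and 12.1 CPM at P16, and the change was -4.46 ± 0.243 without replicate 3. In the SOC Ccnb1 fell by 4.49 ± 0.364, from 64.0, 51.6, 46.4 and 65.9 CPM to 1.59, 1.42 and 3.24 CPM.

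**Figure D2:**
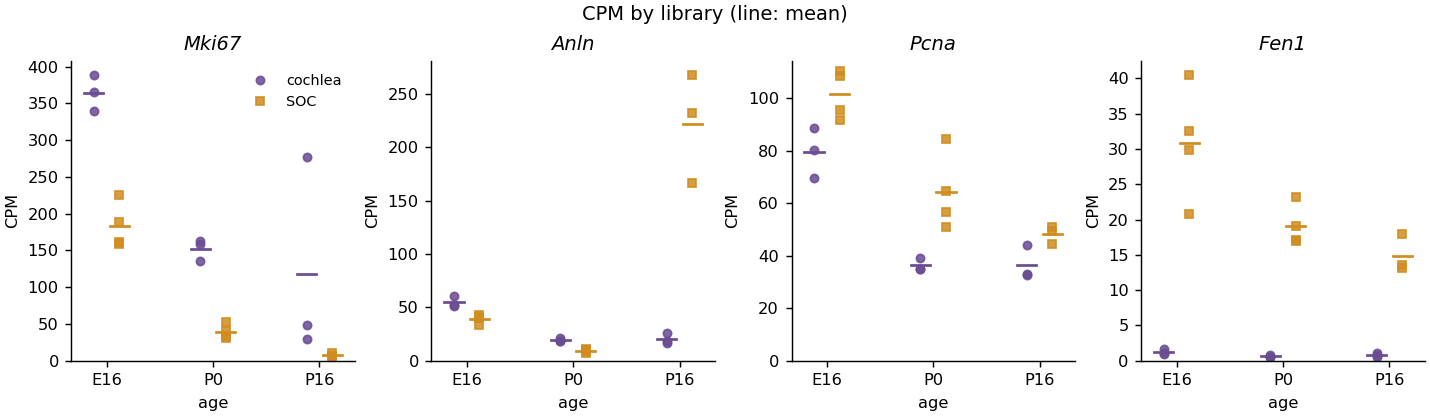
CPM (y axis) by age (x axis) of Mki67, Anln, Pcna and Fen1 in every library of the cochlea (circles) and the SOC (squares), with lines at group means. The high cochlear P16 point of Mki67 is replicate 3 at 277 CPM, Pcna keeps 44.4 to 50.9 CPM in the SOC at P16, and Anln reaches 167 to 268 CPM there.

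The change was largest for Bub1 among the cochlear mitosis genes and for Aurkb among those of the SOC. Bub1, a kinase of the spindle checkpoint, went from 38.0, 31.3 and 42.1 CPM at E16 to 1.13, 1.18 and 6.58 CPM at P16 in the cochlea (-3.61 ± 0.533, or -4.92 ± 0.210 without replicate 3) and from 28.6, 30.4, 23.8 and 39.8 CPM to 0.716, 0.972 and 1.32 CPM in the SOC (-4.64 ± 0.346). Aurkb, the kinase that corrects faulty attachments of chromosomes, went from 25.4, 22.6, 23.2 and 17.1 CPM in the SOC to 0.239, 0.851 and 0 CPM (-5.63 ± 0.597). In the cochlea it went from 26.1, 33.4 and 30.3 CPM to 1.55, 1.78 and 11.1 CPM (-2.59 ± 0.584, or -4.07 ± 0.221 without P16 replicate 3). The 0 in SOC P16 replicate 3, shared by Gins1 and Gins2, needs care. The count table appears to be a join of separately filtered tables, and the one that held this library listed no gene under 21 counts, so that such a 0 allows up to 20 counts, or 0.713 CPM. With 20 counts in place of these 0s the SOC change of Aurkb was -4.87 ± 0.335, and it was still called.

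Among replication genes, the helicase subunits Mcm2 to Mcm7 shared the direction of their change from E16 to P16 but not its size. Mcm2 was at 98.7, 104 and 109 CPM in the cochlea at E16, at 44.4, 52.3 and 55.0 CPM at P0 and at 9.71, 13.7 and 34.5 CPM at P16 (-2.36 ± 0.363 from E16 to P16, or -3.06 ± 0.182 without P16 replicate 3). In the SOC it was at 64.7, 59.8, 62.9 and 48.7 CPM, then at 19.8, 16.6, 13.1 and 16.7 CPM, then at 3.30, 2.92 and 5.85 CPM (-3.59 ± 0.224). Each age lay below the one before it in both organs. Mcm5 went from 81.9, 86.2 and 95.4 CPM at E16 to 7.40, 9.24 and 30.5 CPM at P16 in the cochlea (-2.42 ± 0.416, or -3.31 ± 0.154 without replicate 3). In the SOC it went from 80.0, 57.1, 68.2 and 50.8 CPM to 1.87, 2.23 and 5.28 CPM (-4.08 ± 0.314). All 6 subunits Mcm2 to Mcm7 were called lower at P16 in each organ, from -1.76 (Mcm4) to -2.48 (Mcm6) in the cochlea (-2.04 for Mcm7 to -3.31 for Mcm5 without P16 replicate 3) and from -2.09 (Mcm4) to -4.08 (Mcm5) in the SOC.

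With all libraries and counts as deposited, the largest fall among replication genes was that of Tyms in the cochlea and of Gins2 in the SOC. Neither rank held otherwise, since Mcm5 (-3.31) passed Tyms (-2.96) without cochlea P16 replicate 3, and Cdc6 (-4.18) passed Gins2 (-4.10) with 20 counts in place of the 0. Tyms, the thymidylate synthase, stood at 49.9, 47.9 and 59.3 CPM in the cochlea at E16 and at 6.53, 6.16 and 11.8 CPM at P16 (-2.62 ± 0.221). Its SOC libraries were at 30.2, 25.2, 25.2 and 25.3 CPM at E16 and at 1.35, 1.94 and 2.496 CPM at P16 (-3.49 ± 0.211). The P16 libraries of both organs lay far below those of E16. Gins2, a subunit of the active helicase, stood at 14.7, 10.4, 10.8 and 9.03 CPM in the SOC at E16 and at 0.279, 0.567 and 0 CPM at P16 (-5.02 ± 0.557), which became -4.10 ± 0.290 with 20 counts in place of the 0. In the cochlea it stood at 14.2, 15.5 and 15.0 CPM and then at 2.15, 2.72 and 3.25 CPM (-2.38 ± 0.161).

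Pcna and Fen1 changed least among the replication genes. Pcna, the sliding clamp, which also serves DNA repair, was at 80.4, 69.8 and 88.6 CPM in the cochlea at E16, at 39.2, 34.8 and 34.96 CPM at P0 and at 32.6, 33.0 and 43.99 CPM at P16. Its SOC levels were 108, 91.9, 95.4 and 110 CPM, then 64.8, 56.8, 50.9 and 84.7 CPM, then 50.9, 49.4 and 44.4 CPM. P16 lay below E16 in every library of both organs, but P16 and P0 overlapped in the cochlea. The changes from E16 to P16 were -1.05 ± 0.137 (cochlea, adjusted p = 5.616e-05) and -0.77 ± 0.192 (SOC, adjusted p = 0.00391), both under the fold required. Fen1 was at 40.4, 29.8, 32.5 and 20.8 CPM in the SOC at E16 and at 13.5, 13.1 and 18.0 CPM at P16 (-0.76 ± 0.198, under the fold required). In the cochlea Fen1 was at 0.900, 1.67 and 1.04 CPM at E16 and at 0.491, 1.03 and 0.832 CPM at P16 (-0.52 ± 0.339, adjusted p = 0.209), with overlapping ages.

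In the cochlea 6 further members were not called lower at P16, and in each of them replicate 3 lay far above the other P16 libraries. Cdc6, the helicase loader, was at 18.1, 15.95 and 19.9 CPM at E16 and at 2.95, 4.56 and 12.4 CPM at P16 (-1.38 ± 0.396, adjusted p = 0.0108). Cdt1, which acts with it, was at 17.3, 22.5 and 20.3 CPM and then at 2.76, 2.87 and 13.1 CPM (-1.63 ± 0.493, adjusted p = 0.0142). Rrm2, the cell-cycle subunit of ribonucleotide reductase, was at 44.5, 43.99 and 51.7 CPM and then at 4.495, 8.25 and 40.8 CPM (-1.33 ± 0.588, adjusted p = 0.0695). In the SOC these 3 genes were called lower, by -4.20 ± 0.390 (Cdc6), -2.73 ± 0.258 (Cdt1) and -3.52 ± 0.322 (Rrm2). Ube2c, the conjugating enzyme of the anaphase-promoting complex, was at 13.5, 25.7 and 19.4 CPM in the cochlea at E16 and at 0.680, 1.72 and 14.0 CPM at P16 (-1.79 ± 0.765, adjusted p = 0.0622). In the SOC it went from 20.5, 24.0, 24.0 and 10.3 CPM to 0.279, 0.527 and 0.856 CPM (-4.84 ± 0.407). The other genes not called were Mki67 (above) and Ccnb2 (21.8, 25.2 and 29.6 CPM to 1.78, 2.21 and 14.5 CPM, -2.0 ± 0.606, adjusted p = 0.0141). All 6 were called without replicate 3, Cdc6 at -2.16, Cdt1 at -2.75, Rrm2 at -2.78, Mki67 at -3.13, Ube2c at -3.89 and Ccnb2 at -3.59, whereas Pcna (-1.20) and Fen1 (-0.54) were not.

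Anln (chr9:22332012-22389188, minus strand) took the opposite course in the SOC. Anillin is a scaffold of the contractile ring in dividing cells, and outside the cell cycle it is known from central myelin, where it holds septin filaments. It stood at 43.3, 39.7, 33.3 and 41.4 CPM in the SOC at E16, at 8.97, 9.99, 6.91 and 11.3 CPM at P0, and at 268, 232 and 167 CPM at P16. Thus it fell with the other mitosis genes up to P0 (-2.04 ± 0.216) and then rose above the E16 libraries, by 4.85 ± 0.245 from P0 and by 2.81 ± 0.225 from E16 (adjusted p = 4.803e-07), against 12.1% of all genes called higher from E16 to P16. In the cochlea it stood at 52.4, 51.0 and 61.1 CPM at E16, at 21.4, 18.1 and 18.5 CPM at P0, and at 16.6, 18.4 and 26.2 CPM at P16 (-1.36 ± 0.164 from E16, adjusted p = 3.131e-05), with P0 and P16 overlapping. This cochlear fall was close to the fold required, and its call was lost without cochlea E16 replicate 3 (-1.26), P16 replicate 1 (-1.23) or P16 replicate 2 (-1.30). In the SOC the 6 markers of oligodendrocyte precursors summed to 533 to 623 CPM at E16, to 423 to 723 CPM at P0 and to 678 to 1130 CPM at P16, where 4 of them were called higher and 1 lower than at E16. Their part in the change of Anln was not tested.

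Other cell types moved with the E16 libraries of the SOC. The 10 skeletal muscle markers summed to 1052 to 2149 CPM at E16, to 24.2 to 43.6 CPM at P0 and to 75.6 to 81.4 CPM at P16. The 11 cartilage markers summed to 5226 to 10900 CPM at E16 and to at most 112 CPM at P0 and 167 CPM at P16. Erythroid markers went from 1546 to 3030 CPM down to 160 to 330 CPM at P0 and 264 to 380 CPM at P16. At P0 against E16 all 10 muscle markers, 10 of 11 cartilage markers and 8 of 9 tested erythroid markers were called lower (6.68% of all genes). The part of these tissues in the falls measured from E16 was not tested. The 8 markers of neural progenitors and radial glia summed to 1212 to 1837 CPM at E16, to 1442 to 1822 CPM at P0 and to 141 to 224 CPM at P16, and 5 of them were called lower from E16 to P16 (14.7% of all genes). In the cochlea the same list went from 1205 to 1285 CPM over 1027 to 1122 CPM to 313 to 362 CPM, with 3 of 6 tested genes called lower (9.5% of all genes).

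The fall had begun by birth. From E16 to P0, 8 replication and 22 mitosis genes were called lower in the SOC, against 6.68% of all genes, with median log2 fold changes of -1.21 and -1.96 (2.31 and 3.89 times lower). In the cochlea 5 replication and 10 mitosis genes were called lower, against 3.44% of all genes, with medians of -1.15 and -1.39 (2.22 and 2.62 times lower). All 44 changes were negative in each organ, and 20 replication and all 23 mitosis genes had no overlap between E16 and P0 in the cochlea (30.1% of all genes). The mitosis genes called in the cochlea were Top2a, Bub1, Bub1b, Cenpe, Cenpf, Kif23, Tpx2, Nusap1, Prc1 and Anln. All 3 ages share 1 estimate of spread in the fit, so that leaving out P16 replicate 3 changed these counts to 9 and 14.

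From P0 to P16, 15 replication genes and 21 mitosis genes were called lower in the SOC, against 8.78% of all genes, with medians of -1.80 and -2.20. Anln was the only member called higher (7.85% of all genes). In the cochlea 4 replication genes (Mcm2, Mcm6, Gins2 and Rfc3) and 2 mitosis genes (Cenpf and Kif20a) were called lower, against 10.5% of all genes, with medians of -0.82 and -0.97. Without replicate 3, the counts were 9 and 20, against 12% of all genes, and the medians -1.10 and -2.07. The count of 2 mitosis genes thus rested on that library.

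For members that fell over 2-fold, the share of the log2 change from E16 to P16 that had been reached at P0 was computed. In the SOC its median was 46.1% over 19 replication genes and 44.7% over 22 mitosis genes. In the cochlea it was 56.2% over 20 and 58.9% over 23 genes, and 48.3% and 43.9% without P16 replicate 3. Rfc3, a subunit of the clamp loader, had the lowest share in both organs, at 18.3% in the SOC and 9.80% in the cochlea. It was at 24.3, 22.1 and 23.3 CPM in the cochlea at E16, at 20.9, 16.9 and 19.1 CPM at P0, and at 3.97, 4.14 and 7.05 CPM at P16. The P0 libraries lay just below those of E16 and far above those of P16. Without P16 replicate 3 the lowest cochlear share was that of Cdt1, at 7.90%, which was at 12.5, 19.9 and 17.4 CPM at P0 and overlapped E16.

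The 2 groups of genes were compared in each library by the median of their log2 ratios to the E16 mean. In the SOC at P16, replication genes were at 8.63%, 10.4% and 12.1% of their E16 level and mitosis genes at 3.46%, 3.82% and 7.32%. The distance between the medians was 1.32, 1.45 and 0.72 (log2). In the cochlea at P16, replication genes were at 16.9% and 20.7% and mitosis genes at 6.49% and 9.06% in replicates 1 and 2, a distance of 1.38 and 1.19. In replicate 3 they were at 37.3% and 37.6%, a distance of -0.01. At P0 the distances were 0.15 to 0.43 in the cochlea and 0.36 to 0.82 in the SOC, so that mitosis genes lay below replication genes in every P0 and P16 library except cochlea P16 replicate 3. These are descriptions of the chosen lists, with no test.

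**Figure D3:**
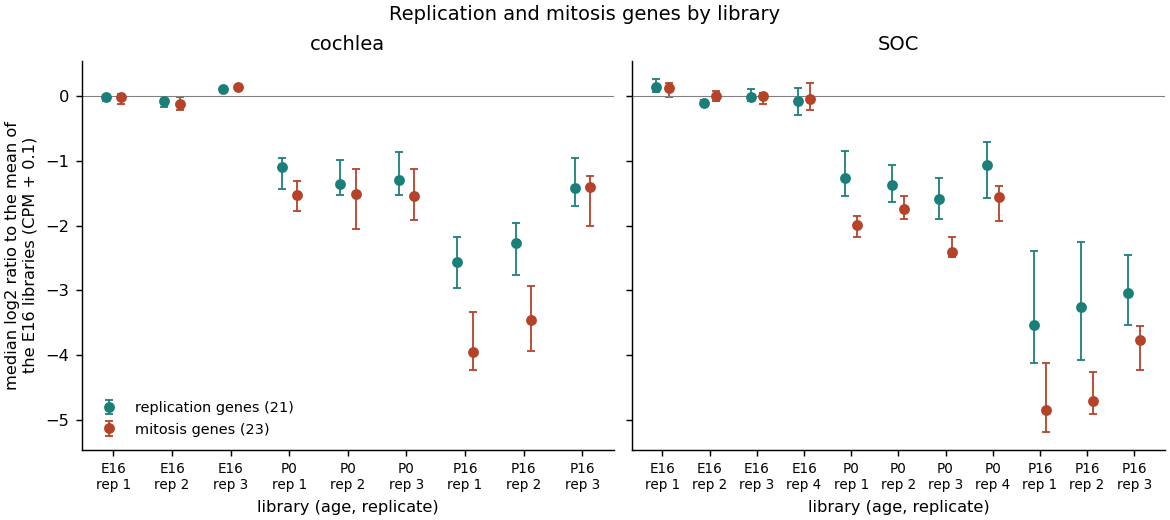
Median log2 ratio to the E16 mean (y axis, CPM + 0.1, bars from the lower to the upper quartile over genes) of replication and mitosis genes in each library (x axis) of the cochlea and the SOC. The groups of genes part at P16 by 0.72 to 1.45 in all libraries but cochlea replicate 3, where they are at 37.3% and 37.6% of E16.

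Cochlea P16 replicate 3 was above both other P16 libraries in 20 of 21 replication genes and in all 23 mitosis genes. Over the mean of replicates 1 and 2, its level was 1.85 times as high in the median replication gene, from 1.10 times (Fen1) to 6.40 times (Rrm2). In the median mitosis gene it was 4.05 times as high, from 1.497 times (Anln) to 11.65 times (Ube2c). The marrow neutrophil markers had a median of 7.30 times, the erythroid markers 6.12 and the B-lymphoid markers 3.86, whereas cartilage markers were at 1.20, hair cell markers at 1.13 and neuron markers at 0.799 times. Against P0, the median mitosis gene of replicate 3 was at 0.935 of the P0 mean, and 8 of 23 were above all P0 libraries. Replicates 1 and 2 were below all P0 libraries in 22 of the 23. For replication genes the corresponding values were 0.919, 5 and 18 of 21. Of all 21701 genes tested, 8264 had replicates 1 and 2 below all P0 libraries. For the counts of genes with replicate 3 highest or above all P0 libraries, no share over all genes was computed. Those counts only describe the lists. The part of marrow cells in these levels was not tested. The study's dissection of the sensory epithelium is not described by replicate.

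**Figure D4:**
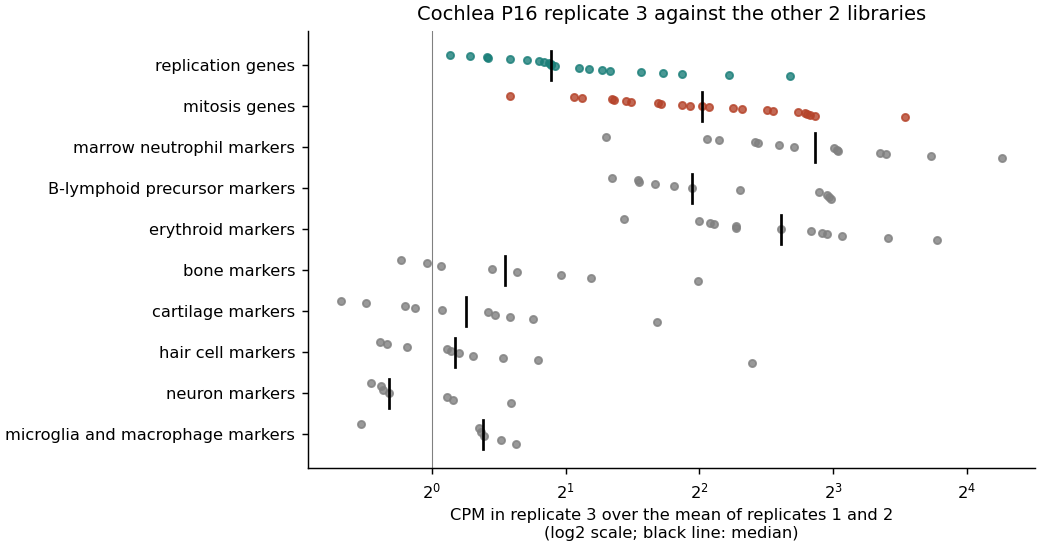
CPM in cochlea P16 replicate 3 divided by the mean of replicates 1 and 2 (x axis, log2 scale) for each gene of the lists on the y axis, with black lines at medians. The median of the mitosis genes (4.05) lies between those of the B-lymphoid (3.86) and erythroid (6.12) markers, with Anln lowest at 1.497, and the medians of cartilage (1.20), hair cell (1.13) and neuron (0.799) markers lie near 1.

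Whether the organs differed in their change was tested as an interaction, the cochlear change less the SOC change, called at an adjusted p under 0.01 and a difference over 2.5-fold. From E16 to P16, 5 replication and 9 mitosis genes were called, against 19.2% of 16467 genes in either direction. The change was less negative in the cochlea for 13 of them (Mcm3, Mcm10, Cdc6, Gins2, Pole, Mki67, Ccna2, Ccnb2, Cdc20, Bub1b, Kif20a, Nusap1 and Prc1), and Anln went the other way. The median interaction was 1.19 for replication and 1.61 for mitosis genes (0.10 for all genes). Without cochlea P16 replicate 3 it was 0.62 and 0.77, and 8 members remained called. Of all 16467 genes, 1984 were then called with a positive and 962 with a negative interaction. The share of members called was thus near that of all genes. All 8 kept the direction they had before, namely Mcm10 (1.70), Cdc6 (2.12), Gins2 (2.60), Pole (1.32), Mki67 (1.36), Cdc20 (1.85), Nusap1 (1.70) and Anln (-4.28). The change was more negative in the SOC in 39 of 44 members with that library and in 31 without it. Over all 16467 genes, the interaction was positive in 8966 with it and in 8788 without it.

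The largest positive interactions among replication genes were those of Cdc6 (2.91 ± 0.602, adjusted p = 0.000743) and Gins2 (2.73 ± 0.570, adjusted p = 0.000822). With 20 counts in place of the 0 in SOC P16 replicate 3, Gins2 was at 1.82 ± 0.324 and still called. Among mitosis genes they were those of Aurkb (3.14 ± 0.923, adjusted p = 0.0108) and Ube2c (3.13 ± 1.00, adjusted p = 0.0176), which did not pass. Without cochlea P16 replicate 3 they were at 1.66 and 1.02, behind Cdc20 (1.85) and Nusap1 (1.70), and with 20 counts in place of its 0 Aurkb was at 2.39 ± 0.745. At the other end were Pcna (-0.19 ± 0.247), Rfc4 (-0.02 ± 0.313), Cenpf (0.38 ± 0.529) and Anln (-4.08 ± 0.299, adjusted p = 5.252e-09). Rfc4, a clamp loader subunit, went from 11.98, 10.2 and 12.6 CPM to 2.76, 2.36 and 4.84 CPM in the cochlea and from 17.0, 13.02, 13.8 and 14.2 CPM to 3.42, 4.25 and 3.74 CPM in the SOC. Cenpf, a protein of the kinetochore, went from 181, 149 and 196 CPM to 6.69, 9.48 and 30.8 CPM in the cochlea and from 63.1, 74.8, 61.4 and 79.6 CPM to 2.79, 4.25 and 6.03 CPM in the SOC. Both were called lower in each organ, and with these SEs the interactions of Pcna, Rfc4 and Cenpf were not distinguishable from 0. From P0 to P16, 4 replication and 4 mitosis genes were called for the interaction, against 17.1% of all genes, 8 in all and 4 without cochlea P16 replicate 3. Of all 16467 genes, 1621 were called with a positive and 1190 with a negative interaction without that library. From E16 to P0 the counts were 0 and 0 in edgeR, against 11.8% of all genes, with 2 replication and 3 mitosis genes at an unadjusted p under 0.05. DESeq2 also called 0 and 0, with 3 and 4 at an unadjusted p under 0.05 and 1 and 1 at an adjusted p under 0.01. Without cochlea P16 replicate 3, edgeR still called 0 members from E16 to P0. Cdk1 (1.29), Kif20a (1.30), Birc5 (0.90) and Prim1 (-1.11) then had an adjusted p under 0.01, but were under the fold required.

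Promoter sequence was a feature that the choice of genes had not used. The 200 bases before the first start site listed for each gene were taken from RefSeq (build GRCm38.p6, which is mm10). Other start sites were not searched, and those used can differ from GENCODE M21. The Cdc6 window, for one, lies inside the GENCODE gene. Of the 44 members, 36 were matched by symbol, 17 replication and 19 mitosis genes. The 8 not matched were Mcm4, Gins1, Gins2, Pole, Ccna2, Aurkb, Kif20a and Tpx2. Searched on both strands were the cell cycle homology region (CHR, TTTGAA), the CCAAT box (CCAAT), and 4 forms of the E2F site (written TTCCCGC with its variant TTCGCGC, then TTGCCGC with its variant TTGGCGC). The CHR letters and CCAAT boxes are known from promoters bound by the DREAM complex and NF-Y, and E2F sites from promoters of S phase genes. A promoter of each kind is printed with the matches in capitals, on the strand of the gene. Top2a (chr11:99024190-99024389, minus strand) and Ccnb2 (chr9:70421555-70421754, minus strand) held CHR and CCAAT matches, Mcm5 (chr8:75109309-75109508, plus strand) held E2F and CCAAT matches, of which a pair of E2F matches overlap, and Anln (chr9:22389207-22389406, minus strand) held no match.
Top2a: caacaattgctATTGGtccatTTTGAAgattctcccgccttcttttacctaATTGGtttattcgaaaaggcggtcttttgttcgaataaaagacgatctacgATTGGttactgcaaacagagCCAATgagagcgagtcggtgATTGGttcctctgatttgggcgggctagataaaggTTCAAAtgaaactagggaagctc
Ccnb2: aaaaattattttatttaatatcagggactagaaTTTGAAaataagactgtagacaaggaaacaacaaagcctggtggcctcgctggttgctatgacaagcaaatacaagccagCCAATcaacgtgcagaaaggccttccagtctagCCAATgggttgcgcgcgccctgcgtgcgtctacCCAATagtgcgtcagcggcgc
Mcm5: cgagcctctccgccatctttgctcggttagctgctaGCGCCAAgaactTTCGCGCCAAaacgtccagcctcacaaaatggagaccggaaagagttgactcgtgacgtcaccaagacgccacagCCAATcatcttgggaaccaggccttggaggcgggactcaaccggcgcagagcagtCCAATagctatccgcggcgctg
Anln: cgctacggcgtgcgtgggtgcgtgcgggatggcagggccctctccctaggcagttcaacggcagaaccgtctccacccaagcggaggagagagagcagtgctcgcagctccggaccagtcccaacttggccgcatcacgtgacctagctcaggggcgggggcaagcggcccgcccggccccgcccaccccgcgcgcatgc

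The CHR letters were in 7 of 19 mitosis promoters (36.8%), in 2 of 17 replication promoters (11.8%) and in 12.7% of all 27020 windows used. These were windows of this length outside chromosome 18. An E2F form was in 8 of 17 replication promoters (47.1%), in 3 of 19 mitosis promoters (15.8%) and in 6.87% of all. CCAAT was in 16 mitosis promoters (84.2%), in 11 replication promoters (64.7%) and in 30% of all. CHR and CCAAT stood together in 7 mitosis promoters and 1 replication promoter, against 3.83% of all. These are counts of letters and do not show that a factor was bound.

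Genes of the same processes outside the 44 were described by lists of their role. Of 169 such genes, 91 were called lower and 2 higher from E16 to P16 in the cochlea, where 9.5% of all genes were called lower and 14.7% higher. Without P16 replicate 3 the counts were 101 and 2, against 10.2% of all genes called lower. In the SOC 100 were called lower and 3 higher, where 14.7% of all genes were called lower and 12.1% higher. In the other origin and replisome genes (39) the counts of lower calls were 15 in the cochlea and 19 in the SOC, with medians of -1.21 and -1.30. Ticrr, which helps origins to fire, had the largest fall in both organs, with -2.87 (cochlea, -4.02 without P16 replicate 3) and -5.34 (SOC), and Orc1, the cycling subunit of the origin recognition complex, was called lower in the SOC (-4.45) and not in the cochlea (-0.07). Its other subunits Orc2 to Orc6 were called in neither organ, with -0.81, -0.16, -0.28, -0.23 and -1.21 in the cochlea and 0.48, -0.14, 0.51, 0.71 and -0.72 in the SOC. The Orc genes were picked after their values had been seen. In the spindle, chromosome and cytokinesis genes (35) the counts of lower calls were 33 and 32, with medians of -2.65 and -3.64. In the kinetochore and checkpoint genes (28) both were 23, with medians of -2.47 and -2.57. Without P16 replicate 3 the cochlear medians of these lists were -3.63 (34 called lower) and -3.07 (23 called lower). That of the other origin and replisome genes was then -1.33 (20 called lower). Of 8 genes of nucleotide supply, 3 were called lower in the cochlea, and 2 were called lower and 1 higher in the SOC. Of 19 genes of the anaphase-promoting and SCF ubiquitin ligases, 4 were called lower and 1 higher in the cochlea. In the SOC 5 were called lower.

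The genes called higher were few (against 14.7% of all genes in the cochlea). In the SOC these were Cit, Zwint and Rrm2b. Cit, the citron kinase of the midbody, went from 20.2, 32.1, 22.5 and 17.0 CPM at E16 to 52.3, 66.3 and 92.8 CPM at P16 (1.90 ± 0.274), while in the cochlea it went from 66.8, 69.3 and 75.2 CPM to 12.1, 13.7 and 36.0 CPM (-1.71 ± 0.336, called lower, or -2.36 ± 0.159 without replicate 3). The interaction of Cit was -3.52 ± 0.472 (adjusted p = 8.743e-06). Like Anln, it therefore rose in the SOC and fell in the cochlea. Zwint, a kinetochore protein, went from 273, 268, 306 and 292 CPM to 687, 714 and 607 CPM in the SOC (1.54 ± 0.153). Rrm2b, the subunit of ribonucleotide reductase that serves resting cells, went from 23.7, 26.6, 21.5 and 38.9 CPM to 73.9, 62.0 and 53.2 CPM (1.49 ± 0.245). In the cochlea the genes called higher were Cdkn1a and Skp1a, a core subunit of the SCF ligase (2.22 ± 0.250).

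Among the 6 inhibitors of cyclin-dependent kinases, Cdkn1a (p21) rose in the cochlea, from 23.6, 26.9 and 22.2 CPM at E16 over 49.3, 61.7 and 59.8 CPM at P0 to 73.1, 59.1 and 78.0 CPM at P16 (1.61 ± 0.142, adjusted p = 2.742e-06). Its SOC values were 5.72 to 8.49 CPM at E16 and 2.71 to 4.14 CPM at P16 (-0.67 ± 0.244, not called). Cdkn1c (p57) fell in both organs, from 120, 122 and 115 CPM to 16.7, 13.1 and 13.9 CPM in the cochlea (-2.95 ± 0.118) and from 526, 438, 432 and 392 CPM to 24.3, 20.7 and 29.6 CPM in the SOC (-3.88 ± 0.177). From E16 to P0 its changes differed between the organs (interaction 2.96 ± 0.182, adjusted p = 1.747e-09 in edgeR's quasi-likelihood test). At P0 Cdkn1c was at 187, 173 and 151 CPM in the cochlea, above all E16 libraries. In the SOC it was at 91.9, 95.2, 78.8 and 67.6 CPM, far below its E16 libraries. The SOC was cut from whole heads at E16, and its muscle and cartilage markers were far lower at P0 (above). Their part in this difference was not tested. Cdkn1b (p27), an inhibitor known to hold cochlear supporting cells out of the cycle, was at 134, 131 and 139 CPM in the cochlea at E16 and at 264, 238 and 225 CPM at P16 (0.92 ± 0.108, under the fold required). Cdkn2c was called lower in the SOC (-1.69), and in the cochlea only without P16 replicate 3 (-1.26 with it, -1.88 without), and Cdkn2b and Cdkn2d were called in neither organ.

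**Figure D5:**
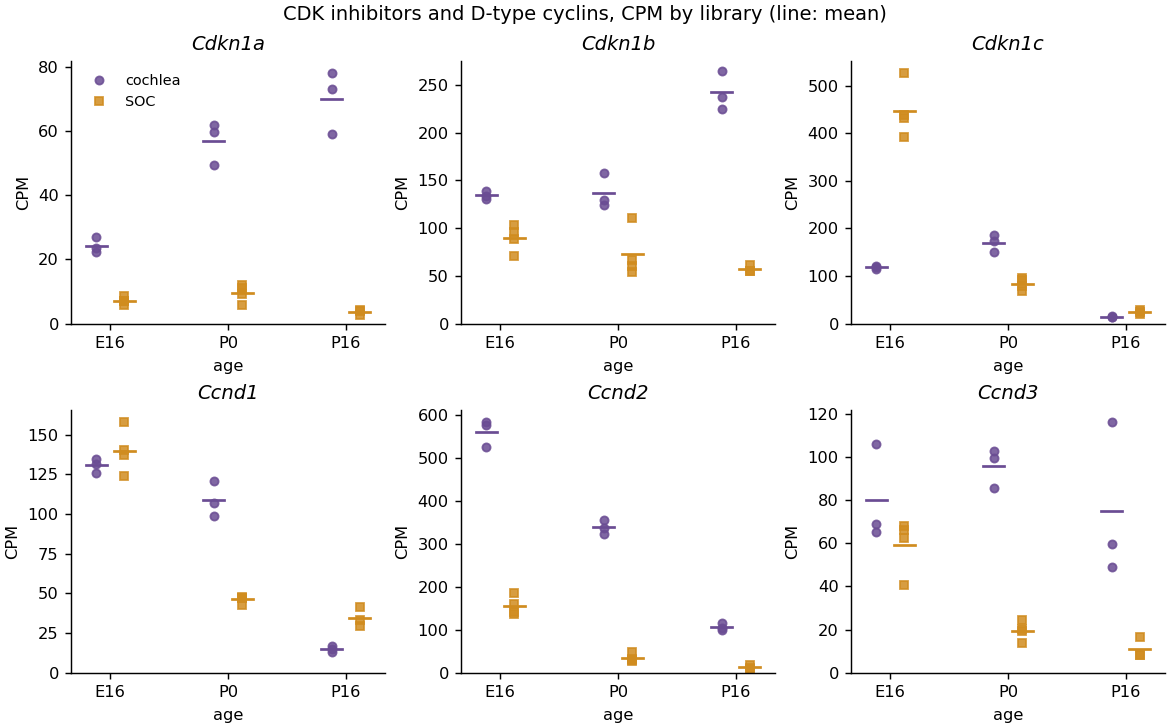
CPM (y axis) by age (x axis) of the CDK inhibitors Cdkn1a, Cdkn1b and Cdkn1c and the D-type cyclins Ccnd1, Ccnd2 and Ccnd3 in every library of the cochlea (circles) and the SOC (squares), with lines at group means. Cdkn1a goes up in the cochlea to 59.1 to 78.0 CPM at P16, Cdkn1c goes down in both organs, and the cochlear Ccnd3 points overlap at all ages.

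The D-type cyclins, which start the cycle with Cdk4 and Cdk6, differed among themselves. Ccnd1 was at 126, 132 and 135 CPM in the cochlea at E16, still at 99.0, 121 and 107 CPM at P0, and at 16.9, 15.0 and 13.2 CPM at P16 (-3.05 ± 0.136). Its SOC level was 158, 140, 124 and 137 CPM at E16, already 43.0 to 47.9 CPM at P0, and 33.0, 29.7 and 41.1 CPM at P16 (-1.73 ± 0.135). Its interaction was called from E16 to P0 (1.35 ± 0.167) and, with the opposite sign, from P0 to P16 (-2.58 ± 0.175). For Ccnd1 too, the part of muscle and cartilage in the SOC E16 libraries was not tested. Ccnd2 fell by 2.32 ± 0.116 (cochlea) and 3.32 ± 0.258 (SOC) on the log2 scale. Ccnd3 fell by 2.15 ± 0.257 in the SOC, whereas in the cochlea it was at 65.0, 106 and 69.0 CPM at E16 and at 48.9, 59.4 and 116 CPM at P16 (-0.02 ± 0.286, or -0.48 ± 0.200 without replicate 3), with an interaction of 2.21 ± 0.411 (adjusted p = 0.000282), or 1.76 ± 0.356 without that library.

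Of 20 E2F, RB and DREAM factors, 5 were called lower in the cochlea (9.5% of all genes) and 7 in the SOC (14.7% of all genes), with medians of -0.61 and -0.55. Without cochlea P16 replicate 3, the cochlear count was 7. E2f7, a repressor of the cycle, fell in both organs (-3.31 ± 0.392 in the cochlea, -4.09 ± 0.227 there without P16 replicate 3, -5.62 ± 0.562 in the SOC). Foxm1, an activator of mitotic genes, did so too (-2.75 ± 0.448 and -3.11 ± 0.385, with -3.70 ± 0.218 in the cochlea without that library). Mybl2, its partner on those promoters, fell in the cochlea (17.6, 17.4 and 17.7 CPM to 2.95, 5.01 and 11.7 CPM, -1.35 ± 0.369, or -2.04 ± 0.220 without the last) and in the SOC (-6.61 ± 0.581), where the P16 libraries held 0.0398, 0.122 and 0 CPM. With 20 counts in place of that 0, the SOC change was -4.19 ± 0.567, still called. E2f1 fell in the cochlea (-2.40 ± 0.365, or -3.11 ± 0.210 without P16 replicate 3) and was at -1.20 ± 0.448 in the SOC, not called. E2f2 was at 7.14, 11.5 and 41.3 CPM in cochlea P16 replicates 1, 2 and 3, the last above all E16 libraries (12.8 to 14.2 CPM). Rb1, the retinoblastoma protein, was called in neither organ (0.83 and 0.03).

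Over all 20 libraries, the genes most like the mean of the 44 members were Dlgap5, Kif15, Aspm, Kif2c and Cdca2, with a Pearson correlation of 0.992, 0.991, 0.991, 0.990 and 0.988 of log2(CPM + 0.5). The comparison covered 14234 genes with at least 1 CPM on average in each organ. The points share libraries, depth and age, so that these values only describe likeness.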

How the data were processed

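The authors aligned reads to mm10 with STAR 2.5.3a and deposited raw counts per gene, with HTSeq and GENCODE named in their processing notes and methods. The annotation release and the use of strand in counting are not given in the sources used here. From these counts CPM was computed and edgeR 4.0.16 (R 4.3.3) was run within each organ, with TMM scaling, filterByExpr, all ages in 1 fit, the quasi-likelihood test and Benjamini-Hochberg adjustment over all genes tested. The organ by age interaction came from 1 fit of all 20 libraries. Alternatives included DESeq2 1.42.0, no filter, GC-adjusted offsets, a replicate block, and leaving out each library. The members and lists were chosen with earlier results of these data known. Values by library were given for fixed genes, for members with the largest and smallest changes, for members not called, and for other cell cycle genes called higher. The study's methods describe the samples as independent biological replicates, each from pooled tissue of several mice. The p-values thus measure the spread between pools, which in the SOC also holds any difference between the joined tables. By their filtering, SOC E16 and P0 replicates 1 to 3 appeared to share a table. E16 replicate 4, P0 replicate 4 and P16 replicates 1 and 2 seemed to share another, and P16 replicate 3 stood alone. At E16, chi-square divided by degrees of freedom was 24.8 to 48.9 within a table and 67.8 to 109 across. At P16 it was 7.35 within and 69.5 to 84.8 across. Same-numbered libraries deviated together in the SOC at E16 and P0 (correlation 0.379 to 0.676 in 4 pairs), and not in all pairs elsewhere. Some differently numbered SOC pairs of these ages did so too, such as E16 replicate 3 with P0 replicate 2 (0.457). Others did not, such as E16 replicate 3 with P0 replicate 4 (-0.591). Pairs of E16 replicate 4 went with the joined tables. They were at 0.377 and 0.288 with P16 replicates 1 and 2, and at -0.381 with P16 replicate 3. Within the table of replicates 1 to 3 both signs occurred, such as -0.267 for E16 replicate 2 with P0 replicate 1. The fits were run on simulated data with the same spread for every gene, no outlying library and no joined tables. Those features of the deposited counts were thus not covered.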

Additional observations from a re-analysis of the deposited data

Results flagged for a closer look

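In 3 of 38 groups of 4 SOC libraries, a member had a library far from the others by Dixon's test, which chance passes in about 1 in 20 groups. The 38 groups are named members in the same E16 and P0 libraries, so that they are not independent. Rrm2 was at 31.5 CPM in SOC P0 replicate 4, against 13.03 to 15.5 CPM in the other P0 libraries. Tyms was at 30.2 CPM in SOC E16 replicate 1, against 25.2 to 25.3 CPM. Cdt1 was at 4.46 CPM in SOC P0 replicate 4, against 6.91 to 7.40 CPM. SOC P0 replicate 4 appeared to come from another joined table than P0 replicates 1 to 3. Its chi-square divided by degrees of freedom was 80.8 to 101 against them, while among them it was 9.77 to 29.1.

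Among the members with the 2 highest and the 2 lowest interactions of each list, 3 differed between the organs in their change from E16 to P16 by the interaction test of edgeR. They were called with all libraries and without cochlea P16 replicate 3. The cochlear change less the SOC change was 2.73 for Gins2, 2.91 for Cdc6 and -4.08 for Anln (log2). Substrain, kit, sequencer and laboratory go with the organ and cannot be told apart from it.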

How the results depend on the processing

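Of the counts of called genes and medians of the lists, 328 values under alternatives stayed close to the reported ones and 54 moved. A test against the 2.5-fold threshold itself (glmTreat) moved the most. Replication and mitosis genes called lower were then 0 and 0 (cochlea, P0 against E16), 8 and 10 (cochlea, P16 against E16), 1 and 0 (cochlea, P16 against P0), 1 and 4 (SOC, P0 against E16) and 7 and 11 (SOC, P16 against P0), and for the interaction 0 and 1 from E16 to P16 and 0 and 1 from P0 to P16. GC-adjusted offsets left 6 mitosis genes called in the cochlea at P0 against E16. At P16 against P0 in the cochlea, DESeq2 called 1 mitosis gene and the replicate block 5. The block moved no other count by over 1.5 times. Leaving out each library in turn gave, for replication and mitosis genes, 2 to 9 and 2 to 14 (cochlea, P0 against E16), 15 to 19 and 18 to 23 (cochlea, P16 against E16), 2 to 9 and 1 to 20 (cochlea, P16 against P0), 7 to 11 and 22 to 23 (SOC, P0 against E16), 18 to 19 and 22 to 22 (SOC, P16 against E16), 14 to 15 and 20 to 22 (SOC, P16 against P0), and for the interaction 4 to 9 and 3 to 15 (E16 to P16) and 1 to 7 and 2 to 10 (P0 to P16). The replicate block also called Cdc6 (-1.53), Cdt1 (-1.85) and Mki67 (-2.07) lower in the cochlea at P16 against E16. Single libraries that moved a count by over 1.5 times were, for the cochlea at P0 against E16, E16 replicates 1 and 3, all P0 replicates and P16 replicate 3, for P16 against P0 every cochlear library, and for the interaction cochlea E16 replicates 1 and 2, P0 replicates 2 and 3 and all P16 replicates, with SOC P16 replicates 1 and 2. The highest values for the cochlea came without P16 replicate 3. The highest for the interaction came without cochlea P16 replicate 1. The sign of interactions near 0 turned for Pcna with GC-adjusted offsets (0.02), for Rfc4 with GC-adjusted offsets (0.15) and without cochlea E16 replicate 3 (0.05), P16 replicate 1 (0.00), P16 replicate 2 (0.17), SOC E16 replicate 2 (0.04), E16 replicate 3 (0.01) or P16 replicate 2 (0.05), and for Cenpf without cochlea P16 replicate 3 (-0.54). Over all single libraries left out, Rfc4 went from -0.37 to 0.17 and Cenpf from -0.54 to 0.66. The cause was not tested. Setting the 0s of joined tables to 20 counts, and using only libraries of 1 joined table, were alternatives chosen after seeing the data. With the latter the SOC medians were -1.48 and -2.06 (replicates 1 to 3) or -0.90 and -1.59 at P0 against E16, and -3.24 and -4.48 at P16 against E16, with no test. With 3 or 4 libraries a group, differences near the fold required are not settled by these data.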
